A study of Rattus norvegicus with 9 samples.

Results

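The glutathione peroxidase family was followed across liver transcriptomes of 3 groups of rats. Its members were taken by gene name (Gpx1, Gpx2, Gpx3, Gpx4, Gpx7 and Gpx8), which gave 6 genes of the 32883 in the deposited table and 6 of its 8 named Gpx genes. The remaining pair, Gpx5 and Gpx6, known from the epididymis and the olfactory epithelium, had a count of 0 in all 9 rats. Liver RNA of male Sprague-Dawley rats was sequenced with 1 library per rat, from normal control rats N1, N3 and N12 on a normal diet, DEN model rats M13, M17 and M24, and PZH administration rats G27, G28 and G42. Rats of the DEN model and PZH administration groups shared weekly intraperitoneal injections of 0.01% diethylnitrosamine (DEN), a liver carcinogen, in a protocol of 16 weeks, and PZH administration rats received in addition the Chinese medicine PZH (Pien-Tze-Huang). The treatment tag of the M rats names PZH as it does for the G rats, so groups were read from the letter in the sample title and from the study's Methods. Neither the dose arm of the G rats (low or high) nor the week at which the sequenced livers were taken is given in the sources used here.

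Glutathione peroxidases reduce hydrogen peroxide and lipid hydroperoxides, with glutathione as the usual electron donor. Gpx1, Gpx2, Gpx3 and Gpx4 are selenoproteins, whose selenocysteine is inserted at a UGA codon by a dedicated translation machinery. Gpx7 and Gpx8 carry a cysteine in its place and reside in the endoplasmic reticulum, where they act beside protein disulfide isomerases in oxidative folding. Gpx1 is the abundant cytosolic enzyme of hepatocytes, Gpx2 is best known from the gut epithelium and as a target of the transcription factor Nrf2, Gpx3 is secreted into plasma, and Gpx4 reduces phospholipid hydroperoxides in membranes and restrains ferroptosis. In a piece of liver, fewer cells of a type and less mRNA per cell cannot be told apart.

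Promoter sequences are shown for the member that gained most in DEN livers (Gpx2), for the secreted member that rose beside it (Gpx3) and for the member that fell most (Gpx1). RefSeq windows of the GRCr8 build, running from 250 bases before to 50 bases after a start site, were found for 5 of the 6 members, in 7 windows. Each was searched on both strands for TGACNNNGC, the core of the antioxidant response element that Nrf2 binds, in which N stands for any base. Capitals mark a match, and sequences run 5′ to 3′ on the strand of the gene.
Gpx2, chr6:101229984-101230283 (GRCr8, minus strand): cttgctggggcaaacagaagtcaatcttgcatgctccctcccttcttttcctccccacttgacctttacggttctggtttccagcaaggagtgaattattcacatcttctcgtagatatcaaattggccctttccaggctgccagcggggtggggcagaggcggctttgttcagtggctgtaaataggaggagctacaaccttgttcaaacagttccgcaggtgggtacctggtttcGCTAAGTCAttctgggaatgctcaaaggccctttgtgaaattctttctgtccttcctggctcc
Gpx3, chr10:39529085-39529384 (GRCr8, plus strand): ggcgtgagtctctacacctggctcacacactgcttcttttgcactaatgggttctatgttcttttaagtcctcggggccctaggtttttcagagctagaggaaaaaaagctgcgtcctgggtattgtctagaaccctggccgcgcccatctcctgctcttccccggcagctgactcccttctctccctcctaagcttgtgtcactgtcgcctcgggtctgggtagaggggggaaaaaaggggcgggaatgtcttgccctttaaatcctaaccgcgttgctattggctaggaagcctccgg
Gpx1, chr8:117905212-117905511 (GRCr8, plus strand): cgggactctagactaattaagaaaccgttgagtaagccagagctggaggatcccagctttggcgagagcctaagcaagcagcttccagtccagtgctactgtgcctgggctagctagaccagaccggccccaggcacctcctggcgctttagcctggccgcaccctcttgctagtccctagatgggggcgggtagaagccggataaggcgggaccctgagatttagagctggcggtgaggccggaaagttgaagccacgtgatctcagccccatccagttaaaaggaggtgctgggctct
The Gpx2 window held 1 match, GCTAAGTCA, which is the motif read on the opposite strand and lies between 13 and 5 bases before the start site. No match was found in the windows of Gpx1, Gpx3, Gpx4 or Gpx7. The motif was present in 4038 of 33469 promoter windows of the same length (12.1%), and a match is a description of the sequence only.

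Most members differed between DEN model and normal control livers by more than the spread between rats, whichever scaling was used, and Gpx4 was the exception. In edgeR's quasi-likelihood fit, with Benjamini-Hochberg adjustment over all genes, 6 of 6 members had an adjusted p under 0.05, against 45.8% of the 14255 genes tested. Gpx2, Gpx3, Gpx7 and Gpx8 were higher (4 members, against 25.3% of genes) and Gpx1 and Gpx4 were lower (2 members, against 20.5%), of which Gpx4 turned to higher, without passing the test, when library totals replaced TMM factors. At the thresholds of the study (more than 2 log2 units in either direction and an unadjusted P under 0.001), 5 members were counted, against 12.3% of genes, and Gpx4 was the member left out. The ranges of the 3 rats in each group did not overlap for any of the 6 members, as for 58.7% of genes. Ranges here and in the next comparisons are those after scaling with TMM factors. The median log2 fold change of the members was 2.26, beside 0.03 over all genes tested.

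Between PZH administration and DEN model livers, 4 of 6 members passed the same test, against 19.1% of 14272 genes. Gpx1 was higher (1 member, against 8.72%) and Gpx2, Gpx7 and Gpx8 were lower (3 members, against 10.3%). Only Gpx2 was counted at the study's thresholds, against 2.43% of genes, and ranges did not overlap for 5 members, against 41.1%. The median of the members was -1.04, beside 0.01 over all genes. This comparison rested on single rats more than the other two comparisons did. With 1 rat left out, between 0 and 5 members passed, with 0 without M13, 2 without M24, 1 without G28 and 5 without M17.

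Against normal control livers, PZH administration livers differed in 3 of 6 members, with 5.21% of 13348 genes past the test. Gpx2 and Gpx3 were higher (2 members, against 4.07%) and Gpx1 was lower (1 member, against 1.15%). At the study's thresholds 1 member, Gpx2, was counted, against 2.32% of genes. Ranges did not overlap for 5 members, against 24% of genes. The median of the members was 0.78, beside -0.02 over all genes. The comparisons share rats in pairs (the DEN model rats, the normal control rats or the PZH administration rats), so their values are given side by side and are not independent of each other.

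**Figure D1:**
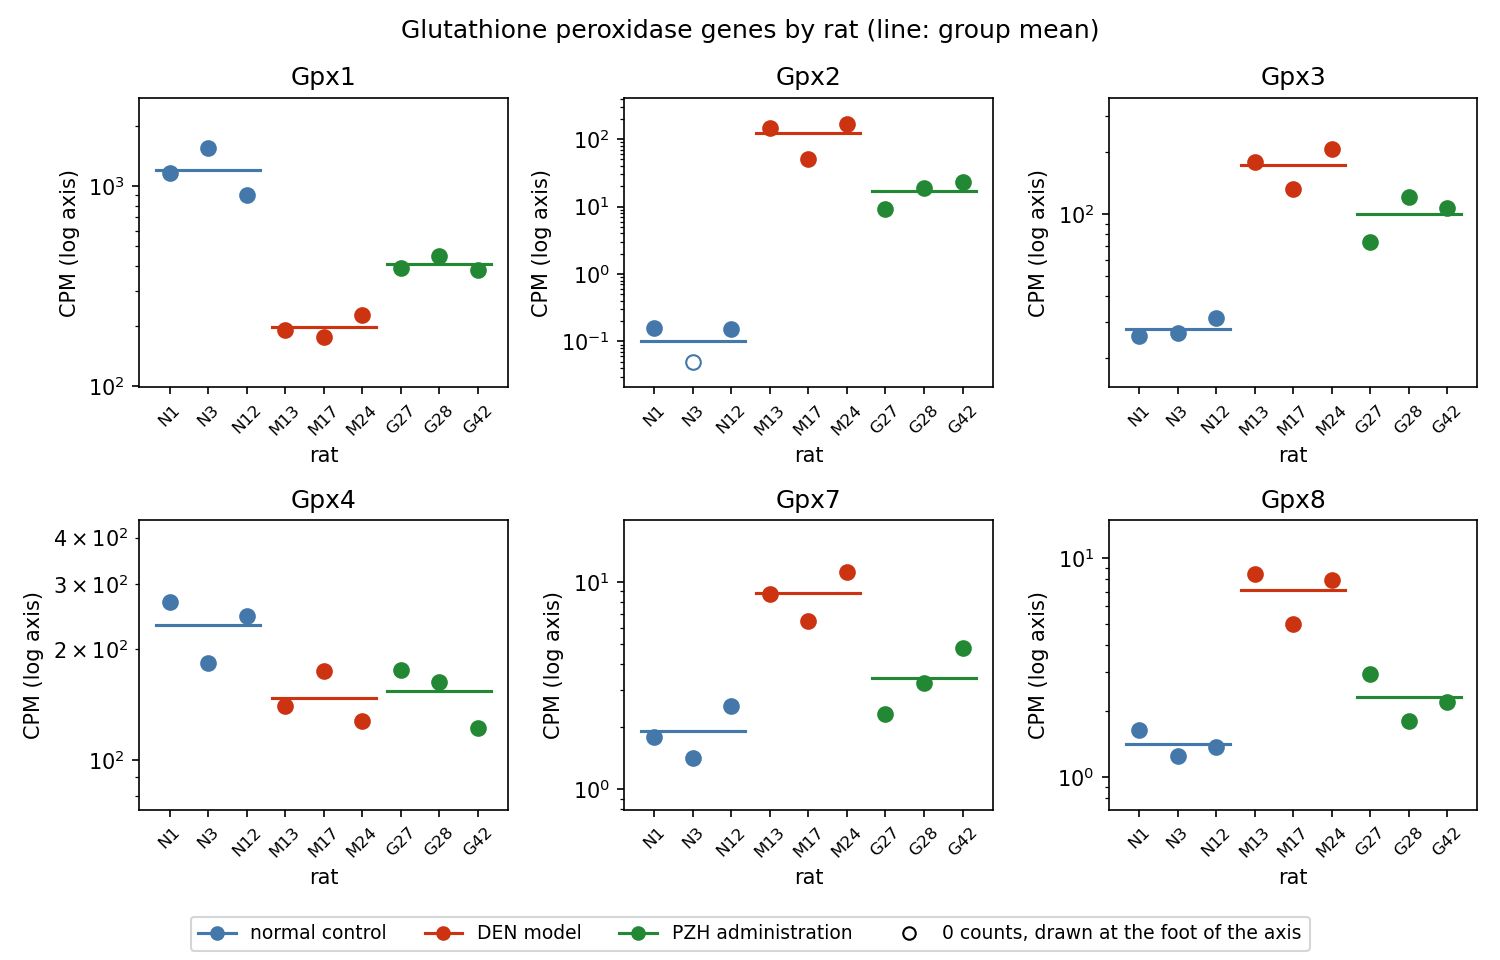
CPM (read counts set to an equal library size, on a log axis) of the 6 glutathione peroxidase genes in each of the 9 rats, with a line at the mean of each group of 3 and an open circle at the foot of the axis for the rat with 0 counts. Gpx1 fell from between 899 and 1550 CPM in normal control rats to between 176 and 226 in DEN model rats, and Gpx2 went from at most 0.156 to between 50.8 and 170 CPM.

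Gpx1 (ENSRNOG00000048812, chromosome 8 from 117117430 to 117118522 in the coordinates of the authors' file, whose genome build is not given in the sources used here) encodes the cytosolic enzyme. Its level in CPM (read counts set to an equal library size, scaled with TMM factors) was 1169 in N1, 1550 in N3 and 899 in N12. In the DEN model rats it was 192 in M13, 176 in M17 and 226 in M24. PZH administration rats stood between, at 391 in G27, 450 in G28 and 381 in G42. No rat of any group overlapped with another group on this scale. When CPM were taken from library totals, M24 was above G27 (354 against 333). Gpx1 was lower in DEN model than in normal control rats, with a log2 fold change of -2.61 ± 0.31 (SE, adjusted p = 0.00043, n = 3 rats per group, edgeR). After PZH it was higher than in DEN model rats by a log2 fold change of 1.08 ± 0.21 (adjusted p = 0.016, edgeR). It stayed lower than in normal control rats, with a log2 fold change of -1.58 ± 0.26 (adjusted p = 0.013, edgeR). With library totals in place of TMM factors, the difference between PZH administration and DEN model rats was 0.39 (adjusted p = 0.22, edgeR). That call was also lost without M13 or without G28, and the difference from normal control rats was lost without G28 (adjusted p between 0.058 and 0.082, edgeR).

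Gpx2 (ENSRNOG00000055672, chromosome 6 from 99839960 to 99843245 in the authors' coordinates) encodes the enzyme of the gut epithelium, and its promoter is the one printed above with a motif match. Normal control livers held 2 counts in N1, 0 in N3 and 2 in N12, all under a floor of 3 counts per library. DEN model rats held 3414 counts in M13, 1021 in M17 and 4058 in M24, or 146, 50.8 and 170 CPM. The PZH administration rats held 211 counts in G27, 275 in G28 and 331 in G42, or 9.13, 19.0 and 23.4 CPM. Every DEN model rat was above every PZH administration rat, and every PZH administration rat was above every normal control rat. Gpx2 was at least 516-fold higher in DEN model than in normal control rats when the controls were set at the floor (adjusted p = 7.5e-05, edgeR). In PZH administration rats it was at least 72.4-fold higher than in normal control rats (adjusted p = 0.0021, edgeR). The log2 fold change between PZH administration and DEN model rats was -2.80 ± 0.50 (adjusted p = 0.014, edgeR), which ranked 220 from the lowest among 14272 genes. Without M13 the adjusted p of that difference was 0.054 (edgeR), at a log2 fold change of -2.66. M17, the DEN model rat with the lowest Gpx2, was still above G42, the highest PZH administration rat.

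Gpx3 (ENSRNOG00000052564, chromosome 10 from 40247436 to 40255422 in the authors' coordinates) encodes the secreted plasma enzyme. Its CPM was 25.6 in N1, 26.6 in N3 and 31.2 in N12, with little spread among the normal control rats. It was 180 in M13, 132 in M17 and 206 in M24. In the PZH administration rats it was 73.4 in G27, 122 in G28 and 107 in G42. The groups did not overlap, though G28 came near M17. Gpx3 was higher in DEN model than in normal control rats by a log2 fold change of 2.64 ± 0.23 (adjusted p = 0.00014, edgeR). In PZH administration rats it was also higher than in normal control rats, by 1.86 ± 0.24 (adjusted p = 0.005, edgeR). The difference between PZH administration and DEN model rats was -0.75 ± 0.26 and did not pass the test (adjusted p = 0.079, edgeR). It passed in DESeq2 (adjusted p = 0.041), with library totals (log2 fold change -1.43, adjusted p = 0.0094, edgeR), with the 3 groups in one fit (adjusted p = 0.043, edgeR) and without M17 (adjusted p = 0.038, edgeR).

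Gpx4 (ENSRNOG00000013604, chromosome 7 from 12516352 to 12519154 in the authors' coordinates) encodes the phospholipid hydroperoxidase that the study placed at the end of its ferroptosis axis. Its CPM was 268 in N1, 183 in N3 and 245 in N12. It was 140 in M13, 174 in M17 and 128 in M24. PZH administration rats had 176 in G27, 163 in G28 and 122 in G42. On this scale the DEN model and normal control rats did not overlap, but M17 lay close to N3. The DEN model and PZH administration rats overlapped. When CPM were taken from library totals, N3 (135) was below M13 (207), M17 (211), M24 (200) and G28 (153). The log2 fold change between DEN model and normal control rats was -0.65 ± 0.22 (adjusted p = 0.043, edgeR). That call depended on the scaling. With library totals the log2 fold change was 0.19 (adjusted p = 0.49, edgeR), while with upper-quartile factors it was -0.51 (adjusted p = 0.09, edgeR). With no filter on low counts, or with at least 10 counts in every rat, the adjusted p was 0.065 and 0.076 (edgeR). It was also above 0.05 without M13, M24, N1 or N12, between 0.11 and 0.15 (edgeR). Between PZH administration and DEN model rats Gpx4 differed by 0.09 ± 0.22 on the log2 scale (adjusted p = 0.8, edgeR; exact two-sided permutation p = 0.9), with -0.57 under library totals (adjusted p = 0.052, edgeR). With TMM factors PZH administration rats did not overlap with normal control rats. The log2 fold change of -0.59 ± 0.21 did not pass the test (adjusted p = 0.17, edgeR). All of these values are mRNA. The study scored GPX4 protein by immunohistochemistry and reported it higher in DEN model rats and lower after PZH, and protein was not measured here.

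Gpx7 (ENSRNOG00000009751, chromosome 5 from 128001761 to 128009735 in the authors' coordinates) is a cysteine-type member of the endoplasmic reticulum. It was counted 23, 17 and 33 times in N1, N3 and N12, or 1.79, 1.41 and 2.51 CPM. In the DEN model rats it reached 8.72 CPM in M13, 6.47 in M17 and 11.2 in M24. In PZH administration rats it was 2.29 CPM in G27, 3.24 in G28 and 4.80 in G42. DEN model rats were above all other rats, while G27 fell within the normal control range. Gpx7 was higher in DEN model than in normal control rats by a log2 fold change of 2.20 ± 0.34 (adjusted p = 0.0014, edgeR). It was lower in PZH administration than in DEN model rats by -1.33 ± 0.35 (adjusted p = 0.034, edgeR), a call lost without M13, M24, G27 or G28. Against normal control rats the value was 0.85 ± 0.42 (adjusted p = 0.33, edgeR).

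Gpx8 (ENSRNOG00000010461, chromosome 2 from 44903337 to 44907030 in the authors' coordinates) is the membrane-bound relative of Gpx7 in the same compartment. Its CPM was 1.63 in N1, 1.25 in N3 and 1.37 in N12. It was 8.42 in M13, 4.97 in M17 and 7.90 in M24. PZH administration rats had 2.94 in G27, 1.80 in G28 and 2.19 in G42. The 3 groups did not overlap, with PZH administration rats just above the normal control rats. Gpx8 was higher in DEN model than in normal control rats by a log2 fold change of 2.32 ± 0.33 (adjusted p = 0.00098, edgeR). In PZH administration rats it was lower than in DEN model rats by -1.58 ± 0.33 (adjusted p = 0.018, edgeR), a call lost without M13, M24, G28 or G42. The difference from normal control rats was 0.71 ± 0.39 (adjusted p = 0.38, edgeR). With 3 rats per group the smallest two-sided p of an exact permutation test is 0.1, and all 6 members reached that value in each comparison except for Gpx4 between PZH administration and DEN model rats and for Gpx7 between PZH administration and normal control rats (exact permutation p = 0.2).

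**Figure D2:**
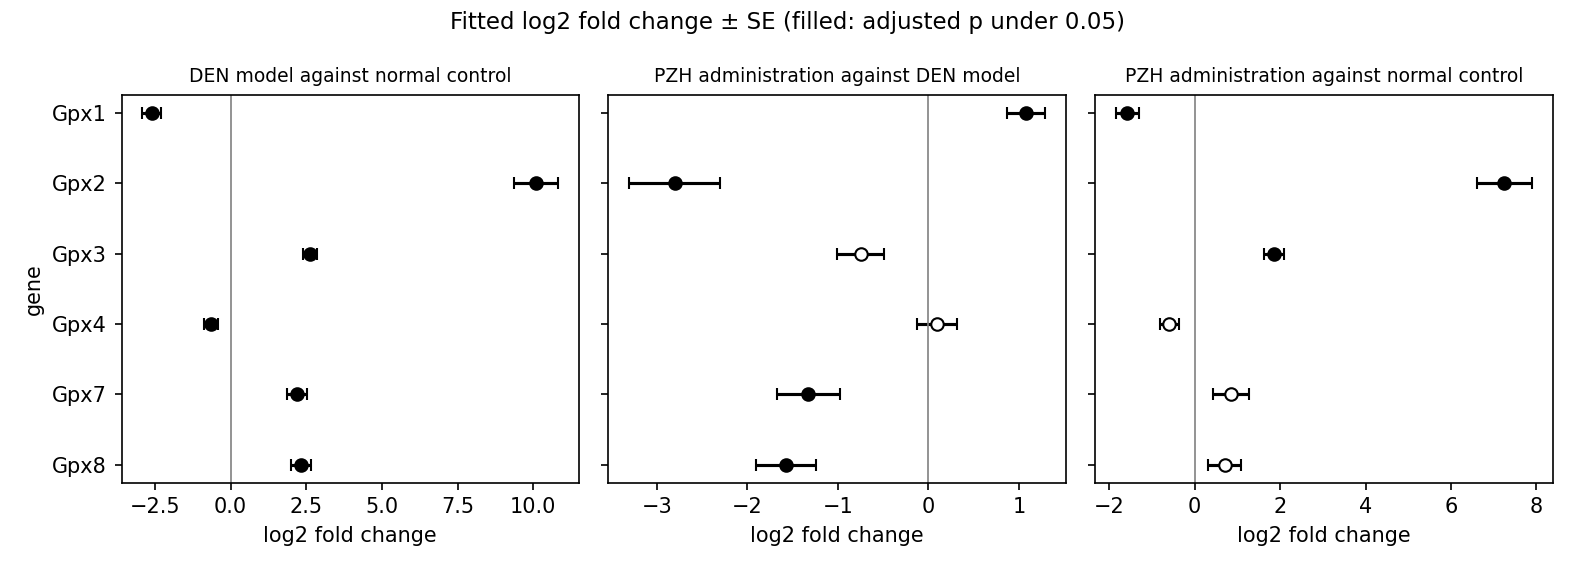
Fitted log2 fold change (horizontal axis, with standard error) of each glutathione peroxidase gene in the 3 comparisons, 3 rats against 3, with filled points for an adjusted p under 0.05. Gpx2 lies at 10.09, -2.80 and 7.25 from left to right (the first and the last are fits against controls at or under 3 counts and depend on the prior count of the fit), and Gpx4 stays within 0.65 of 0.

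Levels of different members were compared as FPKM, the authors' values per length and library size. In normal control livers Gpx1 stood far above the rest, at 1068 ± 242 FPKM (SD, n = 3). Gpx4 followed at 58.5 ± 13.4 and Gpx3 at 14.8 ± 1.99 FPKM, with no overlap between neighbours. Gpx7 (1.28 ± 0.42 FPKM) and Gpx8 (1.04 ± 0.18 FPKM) overlapped, and Gpx2 was last, at 0.123 FPKM or less.

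The order was different in DEN model livers. Gpx1 led at 324 ± 81.4 FPKM, and its range overlapped with that of Gpx2, at 180 ± 106 FPKM. Within each DEN model rat, however, Gpx1 was above Gpx2. Gpx3 at 170 ± 56.7 FPKM overlapped with Gpx2, and Gpx4 followed Gpx3 without overlap at 66.5 ± 1.70 FPKM. Gpx2 in M17, at 60.9 FPKM, was below the Gpx4 of every DEN model rat. Gpx7 (10.9 ± 4.16 FPKM) and Gpx8 (9.68 ± 3.48 FPKM) overlapped again. In PZH administration livers the order was Gpx1 at 426 ± 51.5 FPKM, Gpx3 at 63.1 ± 18.3, Gpx4 at 44.9 ± 6.53, Gpx2 at 15.8 ± 7.33, Gpx7 at 2.73 ± 1.12 and Gpx8 at 1.97 ± 0.39. Gpx3 overlapped with Gpx4 there, and Gpx7 with Gpx8.

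The place of Gpx4 in this order depends on the length used. Its FPKM correspond to a length of 3102 bases, beside 873 to 1468 bases for the other members, although its locus in the same table spans 2803 bases. A length beyond the locus was found for 109 of 20770 genes. With the length of Gpx3 in its place, Gpx4 would hold between 79.1 and 104 FPKM in PZH administration rats, above the 42.6 to 77.5 FPKM of Gpx3. In DEN model rats it would hold between 137 and 144 FPKM and overlap with Gpx3. Comparisons of Gpx4 between rats are not touched by this length.

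Within a rat, shares of the family do not depend on the scaling between rats. Gpx1 made up between 90.8% and 95.7% of the summed FPKM of the 6 genes in normal control rats, between 40.1% and 49.3% in DEN model rats and between 75.5% and 78.8% in PZH administration rats. By counts, which do not use the length of Gpx4, its share was 76.2% to 88.0%, 28.4% to 32.3% and 59.3% to 59.8%, in that order. Each pair of groups was separated without overlap on both measures (exact two-sided permutation p = 0.1, the smallest possible, n = 3 rats per group).

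Gpx2 went from 0.0133% or less of the family FPKM in normal control rats to between 12.4% and 26.9% in DEN model rats, with M17 at the low end. In PZH administration rats it took between 1.59% and 4.01%. Gpx3 took 0.977% to 1.88% in normal control rats, 22.1% to 22.5% in DEN model rats and 8.79% to 12.6% in PZH administration rats. Its share was thus nearly the same in the 3 DEN model rats, while their Gpx2 shares were spread. The number of Gpx1 reads per Gpx4 read was 3.67 to 8.49 in normal control rats, 1.01 to 1.77 in DEN model rats and 2.23 to 3.11 in PZH administration rats, again without overlap. The summed CPM of the family was 1179 to 1761 in normal control rats, 545 to 749 in DEN model rats and 640 to 759 in PZH administration rats. DEN model and PZH administration rats overlapped in that sum, and both were below the normal control rats.

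**Figure D3:**
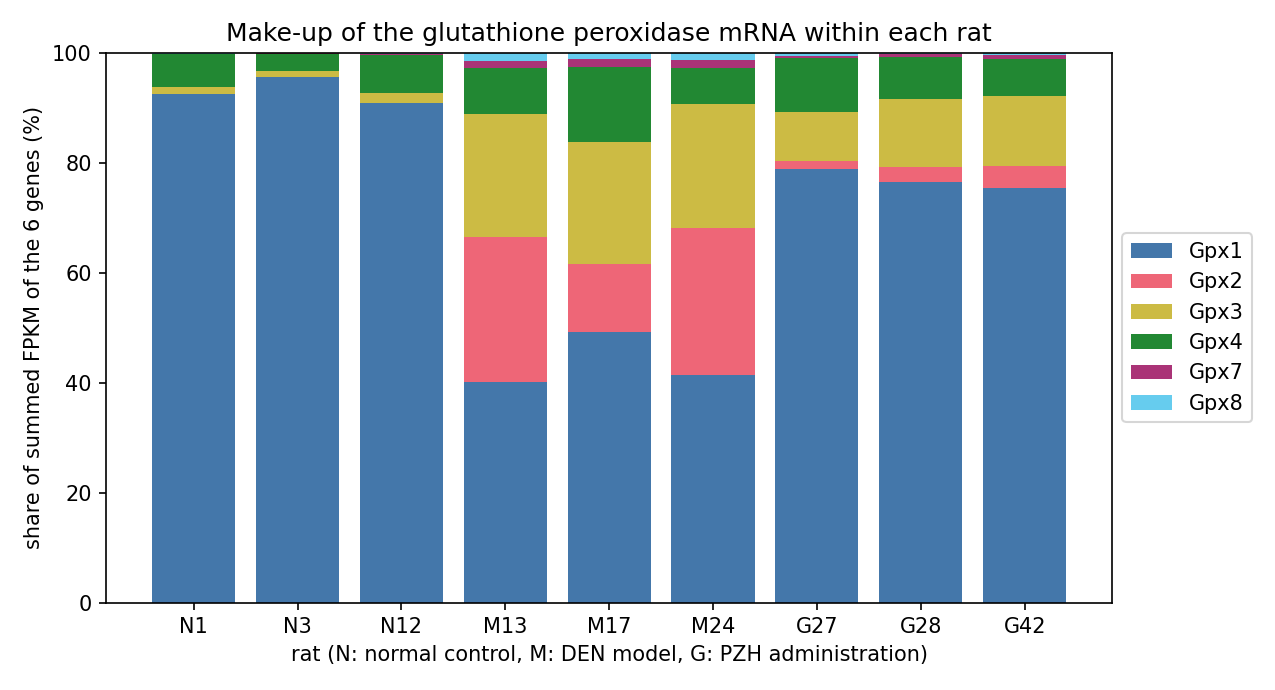
Share of each member in the summed FPKM of the 6 genes, as stacked bars that add up to 100% for each of the 9 rats. Gpx1 fills over 90% of the bar in the normal control rats, 40.1% to 49.3% in the DEN model rats and 75.5% to 78.8% in the PZH administration rats.

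Among the DEN model rats, M17 had the lowest CPM for 5 of the 6 members and the highest for the remaining one, Gpx4. Sums of hepatocyte, bile duct and fibroblast marker genes were read beside these values. The summed CPM of 7 bile duct markers was between 30.5 and 42.6 in normal control rats, 673 in M13, 271 in M17 and 792 in M24, and between 101 and 131 in PZH administration rats. For 9 stellate cell and fibroblast markers it was 200 to 308 in normal control rats, 2031 in M13, 1103 in M17 and 3292 in M24, and 638 to 766 in PZH administration rats. The summed CPM of 10 hepatocyte markers was 171426 to 188898 in normal control rats, 53080 in M13, 89315 in M17 and 38304 in M24, and 145714 to 186576 in PZH administration rats. M17 thus lay nearest to the normal control rats on each of these sums, and none of these markers was at 0 in all rats of a group. Gpx1 in the same DEN model rats was at 192 CPM in M13, 176 in M17 and 226 in M24. The part of cell make-up in the levels of the members was not tested. Across the 7 leukocyte markers the sums were 24.0 to 34.5 in normal control rats, 74.5 to 154 in DEN model rats and 37.6 to 49.1 in PZH administration rats. Sums of the 6 macrophage markers (424 to 832, 397 to 534 and 221 to 524 CPM) and of the 5 endothelial markers (331 to 409, 220 to 417 and 292 to 420 CPM) overlapped between all groups, in the same order. These sums cover single markers that differed. In DEN model rats 2 macrophage markers fell and 0 rose, and 2 endothelial markers fell and 2 rose (20.5% and 25.3% of all genes). After PZH 3 macrophage markers and 1 endothelial marker fell and 0 rose, beside 10.3% and 8.72% of all genes.

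Markers of the organs best known for Gpx2 and Gpx3 were also read. The 8 intestinal markers summed to between 191 and 214 CPM in normal control rats, where Gpx2 was at most 2 counts, and Cdh17 alone held 201 CPM there on average. In the DEN model rats they summed to 111 CPM in M13, 23.5 in M17 and 504 in M24. Tff3 was at 18.9 ± 17.8 CPM (SD, n = 3) there, Vil1 at 16.4 ± 10.4, Cdh17 at 99.5 ± 151 and Fabp2 at 3.37 ± 1.59. Of these 4, the only intestinal markers tested with all rats kept, Tff3 and Vil1 were called higher than in normal control rats, and Cdh17 and Fabp2 were not called (adjusted p = 0.46 and 0.29, edgeR). Without M17 6 of the 8 were tested, with 4 called higher and 0 lower. Cdx1 and Lgals4 were at 0 in all normal control rats but not in all DEN model rats. The sum was between 31.9 and 122 CPM in PZH administration rats. The 7 kidney tubule markers summed to 15.6 to 22.8 CPM in normal control rats, 7.39 to 15.3 in DEN model rats and 21.0 to 30.2 in PZH administration rats, with Slc34a1 at 0 in every rat. Nearly all of that sum was Lrp2, at 18.3 ± 3.61 CPM in normal control, 11.6 ± 3.79 in DEN model and 24.1 ± 4.62 in PZH administration rats (SD, n = 3), and it was the 1 marker of the 7 with enough counts to be tested. Aqp2 was at 0 in all normal control and PZH administration rats but not in all DEN model rats. Umod went the other way, at 0 in all DEN model and PZH administration rats but not in all normal control rats. The part of kidney or intestinal tissue in these levels was not tested.

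**Figure D4:**
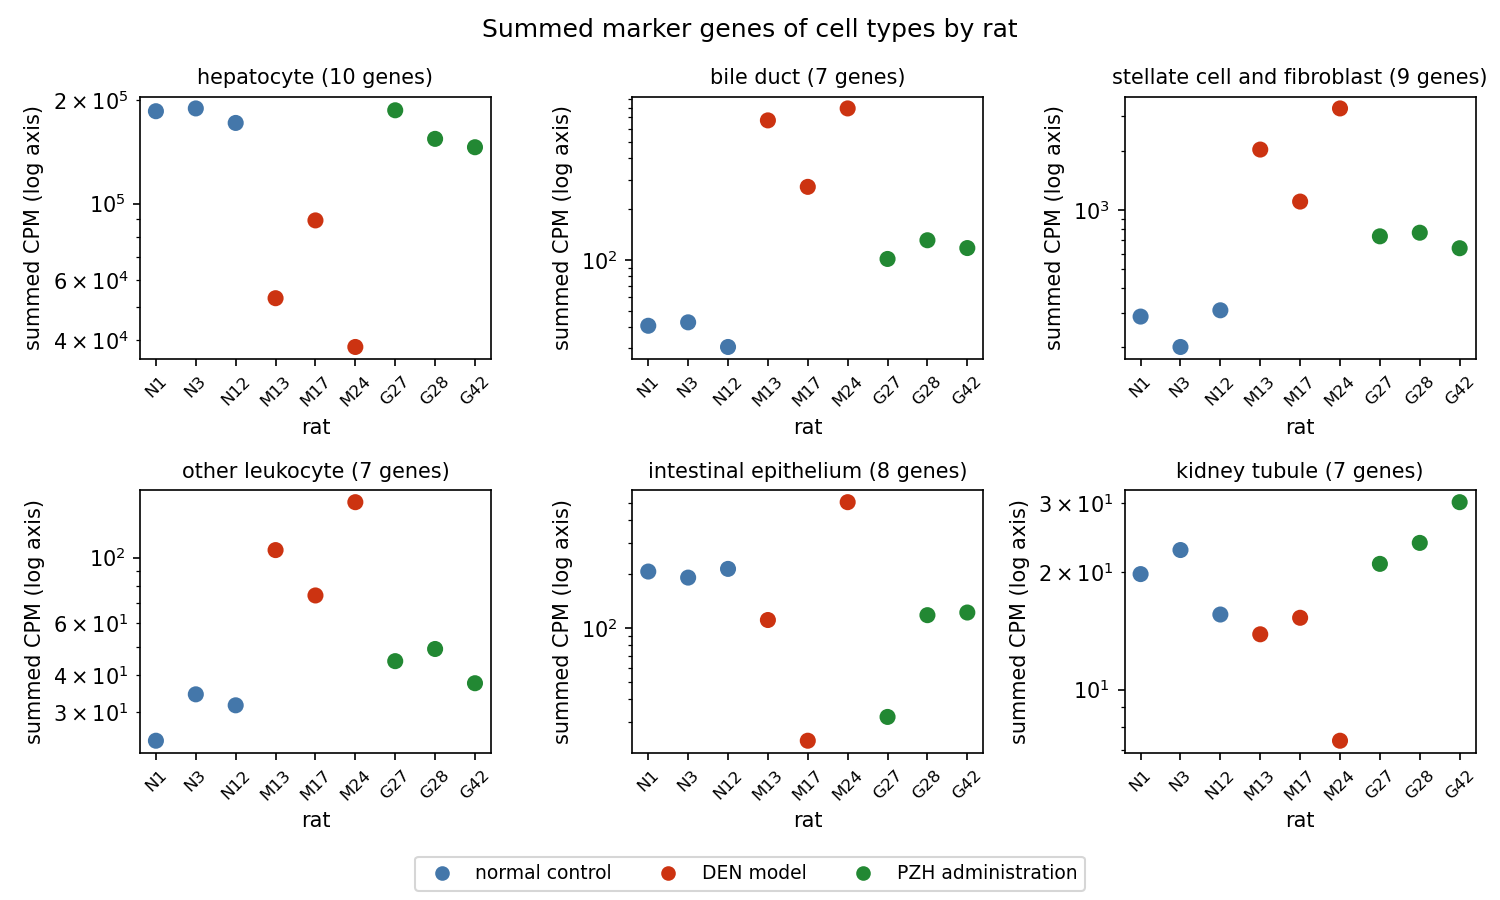
Summed CPM (log axis) of marker genes of 6 cell types in each of the 9 rats, coloured by group. Bile duct markers lie between 271 and 792 CPM in DEN model rats and at 42.6 or less in normal control rats, and M17 is the DEN model rat with the most hepatocyte and the least bile duct and fibroblast signal.

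Genes of the supply and recycling of glutathione, the electron donor of the family, were mostly higher in DEN model livers. Of 10 tested, 7 rose and 1 fell, beside 25.3% and 20.5% of all genes. The median log2 fold change of the list was 1.69, beside 0.03 over all genes. The modifier and catalytic subunits of glutamate-cysteine ligase, which makes the first bond of glutathione, rose by log2 fold changes of 2.42 ± 0.22 (Gclm, adjusted p = 0.00017, edgeR) and 1.98 ± 0.25 (Gclc, adjusted p = 0.00059, edgeR). Glutathione synthetase (Gss) rose by 0.92 ± 0.19 (adjusted p = 0.0048, edgeR). Glutathione reductase (Gsr), which returns the oxidised form, rose by 1.40 ± 0.19 (adjusted p = 0.00081, edgeR). Ggt1, which breaks down glutathione outside the cell, rose by 6.48 ± 0.57 (adjusted p = 0.00015, edgeR). The cystine carrier Slc7a11 had a CPM of 0.233 ± 0.27 in normal control rats (SD, n = 3), 343 ± 240 in DEN model rats and 30.5 ± 26.8 in PZH administration rats. Chac1, an enzyme that degrades glutathione in the cytosol, fell by -2.97 ± 0.47 (adjusted p = 0.0016, edgeR).

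After PZH, 3 of these 10 genes were lower than in DEN model rats and 1 was higher, beside 10.3% and 8.72% of all genes. The median was -0.38, beside 0.01 over all genes. With library totals 5 of the 10 were lower and 0 higher, with a median of -1.04 (-0.67 over all genes). Without M17 3 of the 10 were lower and 0 higher. Slc7a11 and Ggt1 were among those that fell, with log2 fold changes of -3.46 ± 0.94 and -1.42 ± 0.32 (adjusted p = 0.038 and 0.022, edgeR). Chac1 rose by 1.97 ± 0.54 (adjusted p = 0.038, edgeR), a call lost with library totals and without M17. The ligase subunits did not pass the test between these groups, at -0.38 ± 0.38 for Gclm (adjusted p = 0.52, edgeR) and -0.11 ± 0.43 for Gclc (adjusted p = 0.88, edgeR). Against normal control rats 6 of the 10 genes were higher and 0 lower, beside 4.07% and 1.15% of all genes. The median was 1.35, beside -0.02 over all genes, and 0 of the 10 were lower also in DESeq2 and at an unadjusted p under 0.05. The ligase subunits were among the 6, at 2.01 ± 0.38 for Gclm and 1.84 ± 0.43 for Gclc (adjusted p = 0.019 and 0.042, edgeR).

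Of 18 known Nrf2 targets, the group of genes to which Gpx2 is counted, 16 rose and 0 fell in DEN model rats. Among all genes 25.3% rose and 20.5% fell. The median log2 fold change of the list was 2.20, beside 0.03 over all genes (0 of the 18 fell also in DESeq2 and at an unadjusted p under 0.05). The list shares genes with the glutathione list, among them Gclc, Gclm and Slc7a11. Gstp1, a glutathione transferase and marker of preneoplastic rat liver foci, rose by 6.50 ± 0.34 (adjusted p = 2e-05, edgeR). The aldo-keto reductase Akr1b10 rose by 8.82 ± 0.60 (adjusted p = 5.6e-05, edgeR). Aldh3a1, an aldehyde dehydrogenase, went from 0.0506 ± 0.088 CPM in normal control rats (SD, n = 3) to 102 ± 43.6 CPM in DEN model rats (adjusted p = 3.3e-05, edgeR). In PZH administration rats 6 of the 18 fell from the DEN level and 0 rose, beside 10.3% and 8.72% of all genes. The median was -0.58, beside 0.01 over all genes. DESeq2 gave 9 of the 18 lower, and library totals gave 11 lower with a median of -1.25 (-0.67 over all genes). None rose in DESeq2, with library totals or at an unadjusted p under 0.05, but 1 rose without M17. Against normal control rats 11 of the 18 were higher (beside 4.07% of all genes), with a median of 1.79, and 15 were higher in DESeq2. Aldh3a1 remained at 89.9 ± 89.6 CPM there and Gstp1 at 577 ± 279 CPM, beside 1316 ± 245 CPM in DEN model rats.

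For the machinery of selenoprotein synthesis, 6 of 11 genes tested fell and 1 rose in DEN model rats, beside 20.5% and 25.3% of all genes. The median was -0.51 (0.35 with library totals), beside 0.03 (0.89) over all genes. It thus lay below that of all genes under both scalings. Sephs2, which makes the selenium donor, fell by -1.53 ± 0.21, and Eefsec, the elongation factor for selenocysteine, by -1.07 ± 0.19 (adjusted p = 0.00082 and 0.0025, edgeR). Secisbp2, which binds the selenocysteine insertion element, was at -0.24 ± 0.18 (adjusted p = 0.3, edgeR). Lrp8, a receptor for selenoprotein P, rose by 3.91 ± 0.68 (adjusted p = 0.0024, edgeR). After PZH 5 of the 11 were higher than in DEN model rats and 1 was lower, beside 8.72% and 10.3% of all genes. The median was 0.38 (-0.27 with library totals), beside 0.01 (-0.67) over all genes. Sephs2 was among the higher genes, at 1.5 ± 0.24 (adjusted p = 0.011, edgeR). With library totals 1 was higher and 1 lower there, and 4 rose and 1 fell in DEN model rats.

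Of 16 other selenoproteins, 8 fell and 3 rose in DEN model rats, beside 20.5% and 25.3% of all genes. The median was -0.83 (0.02 with library totals, where 5 fell and 6 rose), beside 0.03 (0.89) over all genes. This list shares Sephs2 with the synthesis list and Txnrd1 with the Nrf2 list, so these genes are counted in both. Dio1, the deiodinase of hepatocytes, fell by -3.64 ± 0.36 and rose after PZH by 3.19 ± 0.32 (adjusted p = 0.00025 and 0.0048, edgeR). Selenom was higher in DEN model rats by 2.57 ± 0.41 (adjusted p = 0.0016, edgeR). Selenop, the selenium carrier that hepatocytes secrete, was at 2244 ± 527 CPM in normal control, 1239 ± 367 in DEN model and 2129 ± 612 in PZH administration rats (adjusted p = 0.076 between DEN model and normal control and 0.14 between PZH administration and DEN model, edgeR). After PZH 6 of the 16 were higher and 3 lower than in DEN model rats, beside 8.72% and 10.3% of all genes. The median was 0.75, beside 0.01 over all genes. With library totals 3 of the 16 were higher and 3 lower, with a median of 0.08 beside -0.67 over all genes. Between PZH administration and normal control rats 0 of the 16 other selenoproteins and 0 of the 11 synthesis genes were called by edgeR. At an unadjusted p under 0.05 there were 3 and 2, and DESeq2 called 1 of each list. With 5.21% of all genes called, 0 calls in lists this short is near the share over all genes. Gpx1 was lower and Gpx2 and Gpx3 were higher in that same comparison.

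The peroxide list held 12 genes: peroxiredoxins and catalase, which remove peroxide by other routes, and also superoxide dismutases and thioredoxins. The dismutases (Sod1, Sod2 and Sod3) form hydrogen peroxide, and the thioredoxins (Txn1 and Txn2) donate electrons. Counts and medians of this list are thus not of peroxide-removing enzymes alone. Of the 12 genes 5 fell, Sod1 and Txn2 among them, and 1 rose in DEN model rats. Calls in either direction were near the share over all genes (45.8%). The median was -0.39 (0.46 with library totals, where 3 fell and 5 rose), beside 0.03 (0.89) over all genes. After PZH 2 of the 12 rose and 0 fell, near the share over all genes (19.1% in either direction). The median was 0.29 (-0.39 with library totals, where 1 rose and 3 fell), beside 0.01 (-0.67) over all genes. Also in DESeq2 and at an unadjusted p under 0.05, 0 of the 12 fell. Without M17 4 rose, and in DESeq2 5 rose. Catalase (Cat) fell by -1.58 ± 0.34 and rose after PZH by 1.34 ± 0.31 (adjusted p = 0.0061 and 0.025, edgeR).

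In the endoplasmic reticulum, where Gpx7 and Gpx8 reside, 11 genes of oxidative folding were tested. In DEN model rats 2 rose and 2 fell, no more often than all genes did (45.8% in either direction). The median was -0.33 (0.55 with library totals, where 5 rose and 0 fell), beside 0.03 (0.89) over all genes. Gpx7 and Gpx8 had log2 fold changes of 2.20 and 2.32. This list shares Prdx4 with the peroxide list. The oxidase Ero1a was higher in DEN model rats by 0.57 ± 0.16 and lower after PZH by -0.66 ± 0.17 (adjusted p = 0.017 and 0.031, edgeR). P4hb, the protein disulfide isomerase, was at -0.11 ± 0.31 and 0.27 ± 0.29 in the same comparisons (adjusted p = 0.79 and 0.54, edgeR). After PZH 2 of the 11 were higher and 1 was lower than in DEN model rats, beside 8.72% and 10.3% of all genes. The median was 0.38 (-0.29 with library totals, where 0 were higher and 2 lower), beside 0.01 (-0.67) over all genes.

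Around Gpx4, 10 genes of lipid peroxidation substrates and quinone defence were tested, of which 3 fell and 2 rose in DEN model rats. Calls in either direction were near the share over all genes (45.8%). The median was -0.39 (0.42 with library totals, where 1 fell and 3 rose), beside 0.03 (0.89) over all genes. Por, the cytochrome P450 reductase, fell by -2.07 ± 0.33 (adjusted p = 0.0016, edgeR). Acsl4, which activates polyunsaturated fatty acids, was at 775 ± 214 CPM in normal control, 469 ± 78.8 in DEN model and 739 ± 172 in PZH administration rats (adjusted p = 0.07 and 0.11 for the neighbouring groups, edgeR). After PZH 1 of the 10 rose and 1 fell, near the share over all genes (19.1% in either direction). The median was 0.38 (-0.28 with library totals, where 0 rose and 3 fell), beside 0.01 (-0.67) over all genes. Without M17 3 of the 10 rose and 1 fell. The lipoxygenase Alox15 fell, from 65.7 ± 77.8 CPM in DEN model rats to 0.56 ± 0.37 CPM (adjusted p = 0.014, edgeR). In the peroxide, folding and lipid lists 0 of 12, 0 of 11 and 0 of 9 genes were called between PZH administration and normal control rats by edgeR. At an unadjusted p under 0.05 there were 1, 0 and 2, and DESeq2 called 1, 0 and 1. With 5.21% of all genes called, these counts of 0 are near the share over all genes.

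**Figure D5:**
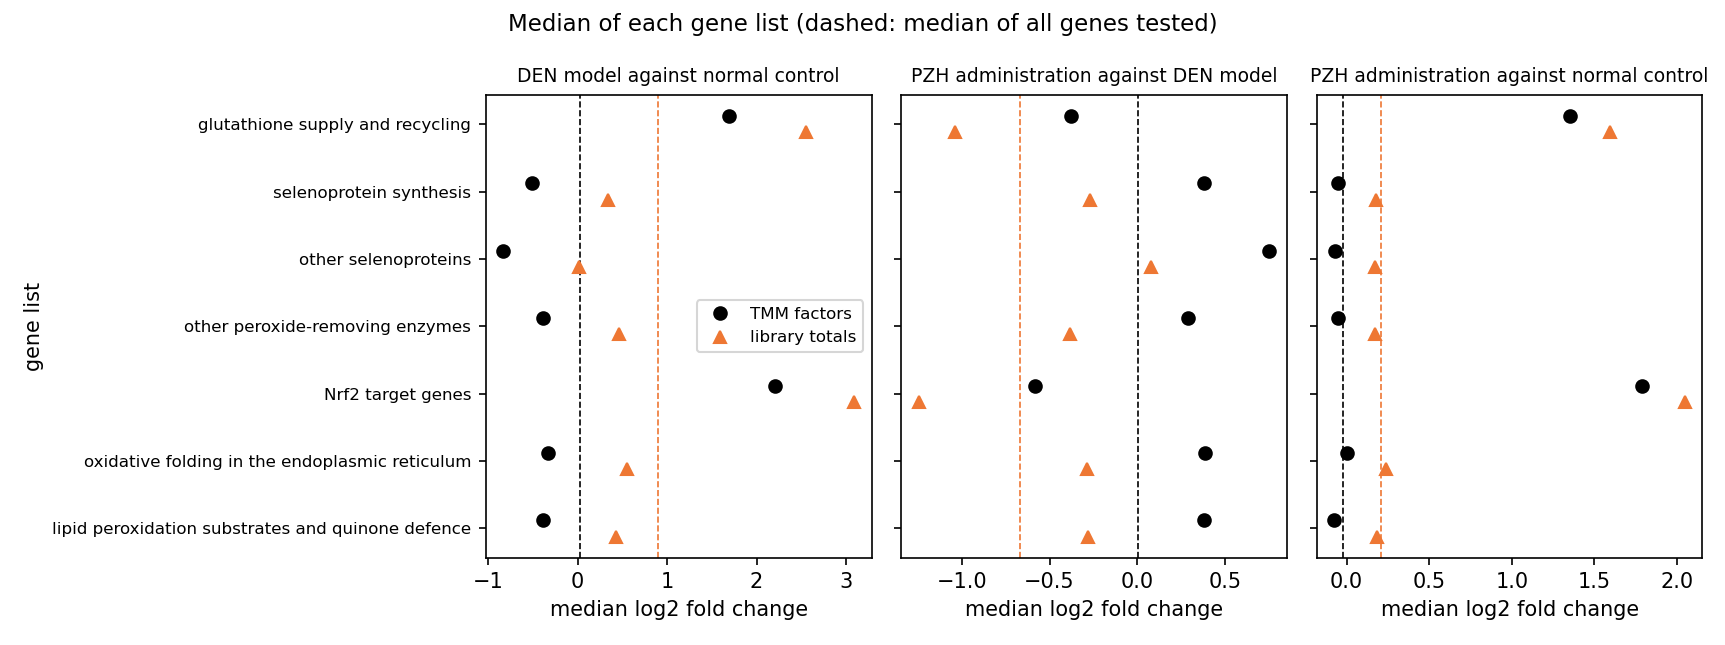
Median log2 fold change of 7 gene lists related to the family (vertical axis) in the 3 comparisons, with TMM factors (circles) and with library totals (triangles), and the median of all genes tested as dashed lines. The Nrf2 list lies at 2.20, -0.58 and 1.79 from left to right with TMM factors. The medians of 5 other lists change sign with library totals in the first comparison. They stay below the median of all genes, which moves from 0.03 to 0.89 there.

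For each member the 3 named genes with the most similar profile were taken, by the root mean square difference of log2(CPM + 1), centred per gene, over the 9 rats and among 12650 genes. Gpx1 lay nearest to Cldn1, Elovl5 and Lhx8 (0.32 to 0.33 log2 units, beside an SD of 1.14 for Gpx1 itself). Gpx2, with an SD of 2.95, lay nearest to Gpc3, a surface proteoglycan known as a marker of hepatocellular carcinoma, then to Dnaaf1 and Serpinb1a, at 0.61 to 0.67. The nearest profiles to Gpx3 were those of Mxra8, Ptgs2 and Myo5a (0.15 to 0.18, SD 1.17). For Gpx4, whose SD was 0.38, they were Kbtbd6, Psmc5 and Bmp1 at 0.11 to 0.12. Gpx7 lay nearest to St8sia4, Sphk1 and Cdca8 (0.15 to 0.17, SD 0.82), and Gpx8 to Gnpda1, Lama4 and Sowaha (0.11 to 0.15, SD 0.81). The points share the same 9 libraries, and the match says nothing of a shared role.

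Total counts per rat were 16115709 to 16412520 in the normal control group, 15259441 to 16641954 in the DEN model group and 14922973 to 27161496 in the PZH administration group, where G27 was the deepest. The floor of 3 counts was worth 0.125 to 0.249 CPM, which covers counting error only, and every member but Gpx2 was above it in every rat. TMM factors were 0.738 to 0.802 in normal control, 1.21 to 1.57 in DEN model and 0.851 to 0.950 in PZH administration rats. Without these factors the median over all genes moved by 0.86, -0.67 and 0.23 log2 units in the comparisons of DEN model with normal control, PZH administration with DEN model and PZH administration with normal control rats.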

How the data were processed

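Liver RNA of 9 rats was sequenced, 1 library per rat. The authors deposited 1 table of 32883 genes, holding raw read counts per gene and rat that were not normalized, FPKM values that the authors scaled for length and library size, and columns of group means and of their own fold changes, P-values and Q-values, which were not used. The submitters' processing notes list fastp, HISAT2 2.1.0, StringTie 1.3.3b and edgeR 3.30.3, while the genome build, the gene counting step and the use of strand are not given in the sources used here. Counting without strand would join a gene with an antisense partner.

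Counts were filtered with filterByExpr, scaled with TMM factors and tested by edgeR 4.0.16 in R 4.3.3 (glmQLFit and glmQLFTest, 3 rats against 3, no covariates), with p-values adjusted by Benjamini-Hochberg over all genes tested. CPM values use TMM factors over all 9 rats, and exact permutation tests used log2(CPM + 1). A fold against rats at or under 3 counts was set against that floor. P-values of the fits set a difference between groups against the spread between rats, estimated with information shared across genes. FPKM lengths were derived from counts and library totals. Alternatives were DESeq2 1.42.0, other scalings and filters, edgeR's exact test, the study's thresholds, all groups in one fit, a thinned G27 and leaving out each rat. Added after seeing the data were the Gpx4 length and the gene lists and markers without M17. The code was tested on simulated counts. Members, lists and markers were chosen with earlier results of these data known. Named genes were the members, their 3 nearest profiles, selected pathway genes and, per list and comparison, up to 4 genes past the study's thresholds, while Sephs2, Eefsec and Cat were picked after their values were seen, and 1 gene that the rule named is not reported here. Depth limits Gpx2 in normal control rats and, less so, Gpx7 and Gpx8. Figures were drawn with matplotlib.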

Additional observations from a re-analysis of the deposited data

How the results depend on the processing

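Of 244 values of the members' log2 fold changes under other settings, 216 kept their direction and their side of the threshold. Gpx4 turned direction with library totals, to 0.19 between DEN model and normal control rats and to -0.57 between PZH administration and DEN model rats, where it also turned with upper-quartile factors (-0.0186). With 1 rat left out it was between -0.00831 (without G27) and 0.24 (without G42) there. The library-total fit differs from the TMM fit only in its scaling, and its shifts over all genes stand with the depths. The number of members past the test ranged from 5 to 6, from 0 to 5 and from 2 to 3 with 1 rat left out, in the comparisons of DEN model with normal control, PZH administration with DEN model and PZH administration with normal control rats. Under the study's thresholds it was 5, 1 and 1. The filter of at least 10 counts in every rat drops Gpx2 against normal control rats, since they hold 0 to 2 counts, and it gave 4 and 2 members there. Gpx1 between PZH administration and DEN model rats lost its call with library totals. Gpx4 between DEN model and normal control rats lost its call under some of the scalings and filters. Gpx3 gained a call under 3 of the other settings between PZH administration and DEN model rats. Thinning G27 from 27161496 to 16641772 counts changed no call. With Gpx4 at the length of Gpx3, 1 pair of neighbours in the FPKM order was free of overlap in DEN model rats in place of 2. No paired analysis was possible because rat numbers are not shared between groups.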
